A study of Homo sapiens with 30 samples.

Results

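The receptor tyrosine kinases EGFR, ERBB2, ERBB3, ERBB4, MET, FGFR1, FGFR2, FGFR3, FGFR4 and RET were followed by gene symbol through every library of an RNA-seq study of prostate cancer cells. These 10 genes were taken out of 23710 gene symbols in the count files and 23616 in the FPKM files (fragments per kilobase of transcript and sequencing depth), and all 10 were present in both. The study compared V16D cells, a castration-resistant line derived from LNCaP prostate cancer cells, with MR49F cells, an enzalutamide-resistant line also derived from LNCaP cells in castrated mice that were treated chronically with enzalutamide. MR49F cells were routinely kept in enzalutamide, and the paper does not state how long before the experiments it was withdrawn. Enzalutamide is an antiandrogen drug, DHT (dihydrotestosterone) is a natural androgen, and JQ-1 is an inhibitor of the BET bromodomain proteins. Each of 10 conditions had 3 libraries, 30 in all.

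In full serum, V16D and MR49F cells were given vehicle (DMSO) or 10 µM enzalutamide for 24 h. In the androgen-depleted experiment, MR49F cells spent 72 h in charcoal-stripped serum and then 24 h with vehicle (DMSO and ethanol), 1 nM DHT, 10 µM enzalutamide, 500 nM JQ-1, DHT with JQ-1, or enzalutamide with JQ-1. For the arms with JQ-1 the 24 h is uncertain, because the authors' figure legend for that RNA-seq refers to a longer treatment. No V16D cells were in stripped serum, and each line is a single derivative, so a difference between the lines belongs to these lines and cannot be assigned to enzalutamide resistance.

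EGFR, ERBB3 and ERBB4 bind extracellular growth factors such as EGF, TGF-alpha and the neuregulins. ERBB2 has no ligand of its own and signals as the preferred dimer partner of the others, while ERBB3 has little kinase activity and signals through its partners to PI3 kinase. MET is the receptor of HGF, FGFR1 to FGFR4 bind fibroblast growth factors together with heparan sulphate or Klotho co-receptors, and RET signals with GFRA co-receptors for ligands of the GDNF family. In prostate cancer cells these kinases feed the MAPK and PI3K pathways.

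By the GRCh37 annotation, EGFR lies at chr7:55086710-55279321, MET at chr7:116312250-116438431, ERBB2 at chr17:37844167-37886679, ERBB3 at chr12:56470583-56497289, FGFR3 at chr4:1795020-1810599, FGFR4 at chr5:176513906-176525145 and RET at chr10:43572512-43625799, all on the plus strand. ERBB4 (chr2:212240442-213403565) and FGFR2 (chr10:123237846-123357972) lie on the minus strand. The 250 bases immediately before the annotated start of the representative transcript are shown for 3 members whose levels the results below turn on. Capitals mark the letters CCAAT or GGGCGG found on either strand.

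ERBB2 (GRCh37, chr17:37856067-37856316, plus strand): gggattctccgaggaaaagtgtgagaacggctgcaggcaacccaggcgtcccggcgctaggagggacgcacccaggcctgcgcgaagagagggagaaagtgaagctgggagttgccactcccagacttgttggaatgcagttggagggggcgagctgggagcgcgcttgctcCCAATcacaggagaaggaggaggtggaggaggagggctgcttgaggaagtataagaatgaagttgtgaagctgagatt
EGFR (GRCh37, chr7:55086460-55086709, plus strand): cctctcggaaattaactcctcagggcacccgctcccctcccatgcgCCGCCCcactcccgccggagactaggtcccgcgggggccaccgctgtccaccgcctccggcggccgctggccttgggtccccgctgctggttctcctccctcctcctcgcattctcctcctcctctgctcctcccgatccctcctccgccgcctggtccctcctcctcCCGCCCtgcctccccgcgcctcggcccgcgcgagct
RET (GRCh37, chr10:43572267-43572516, plus strand): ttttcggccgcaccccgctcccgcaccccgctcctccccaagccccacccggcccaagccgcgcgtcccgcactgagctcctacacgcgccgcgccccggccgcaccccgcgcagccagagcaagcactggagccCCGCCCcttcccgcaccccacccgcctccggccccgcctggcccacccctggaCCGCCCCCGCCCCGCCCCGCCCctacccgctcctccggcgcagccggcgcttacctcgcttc

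Each window lies before the first exon of the representative transcript, and the ERBB2 window lies inside the annotated span of the gene. The windows held 58.8% (ERBB2), 73.6% (EGFR) and 79.6% (RET) G and C, against a median of 63.6% over 18921 promoter windows. ERBB2 had 1 CCAAT and no GGGCGG, EGFR had 2 GGGCGG and RET had 5 GGGCGG. Of all windows of this length 34.3% held CCAAT and 60.1% held GGGCGG.

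Libraries in full serum had 13170504 to 21154962 reads counted on genes, and those in stripped serum 982130 to 1813262, which was 5.13 to 7.66% of the reads counted on genes, on no feature or as ambiguous. EGFR-AS1, the antisense neighbour of EGFR, shares 186 exon bases with it. It held a median of 0.649% as many counts as EGFR in full serum and 59.2% in stripped serum, against 4.65% and 3.79% of its FPKM. Over 97 such antisense pairs the median was 1.02% in full and 7.52% in stripped serum on counts, and 2.71% and 1.91% on FPKM. The strand setting of the counting was not given, and whether it differed between the experiments was not tested. Tests therefore used counts only in full serum and FPKM elsewhere, and a value on counts that includes stripped-serum libraries is not an equal measure beside its FPKM value. One library, MR49F full-serum vehicle replicate 1, stood apart: its chi-square per degree of freedom over genes was 9.87 and 11.6 against replicates 2 and 3, where the other pairs of replicates gave 1.13 to 2.82. Without it 5 of 9 tested members were again called between the lines (9783 of all genes against 8929 with it) and 6 of 8 between the sera (9967 against 10421). For enzalutamide in MR49F cells 2 of 9 were again called, but the calls over all genes went from 1181 to 2533. For the difference in enzalutamide change between the lines, called members went from 1 to 3 of 9 and all genes from 1006 to 1523. Luminal markers were at 1 FPKM or more for 9 of 9 genes in every library, whereas the summed level of basal markers was at most 0.37 FPKM. The fit of the androgen-responsive gene KLK3, which encodes PSA, gave a log2 change of -1.89 with enzalutamide in V16D cells, 2.15 with DHT and 1.5 with enzalutamide in stripped-serum MR49F cells, and -5.32 with JQ-1.

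Per transcript length, ERBB3, ERBB2, EGFR and FGFR1 were the most abundant members. ERBB3 had the highest group mean in all 4 full-serum groups and in stripped serum with DHT or enzalutamide, and ERBB2 in the other 4 stripped-serum groups. Over the 30 libraries ERBB2 ranged from 7.57 to 52.0 FPKM and EGFR from 5.30 to 8.96 FPKM. ERBB4 never exceeded 0.023 FPKM and was listed at 0 FPKM in 9 libraries. It lay under the filters and was tested in no comparison. It had no counted read in any of the 18 stripped-serum libraries, where counts carry the doubt given above, and its FPKM was 0 in 5 of them. ERBB2 made up 14.8% of the summed FPKM of the 10 members in V16D vehicle cells and 47.4% in stripped-serum vehicle cells.

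**Figure D1:**
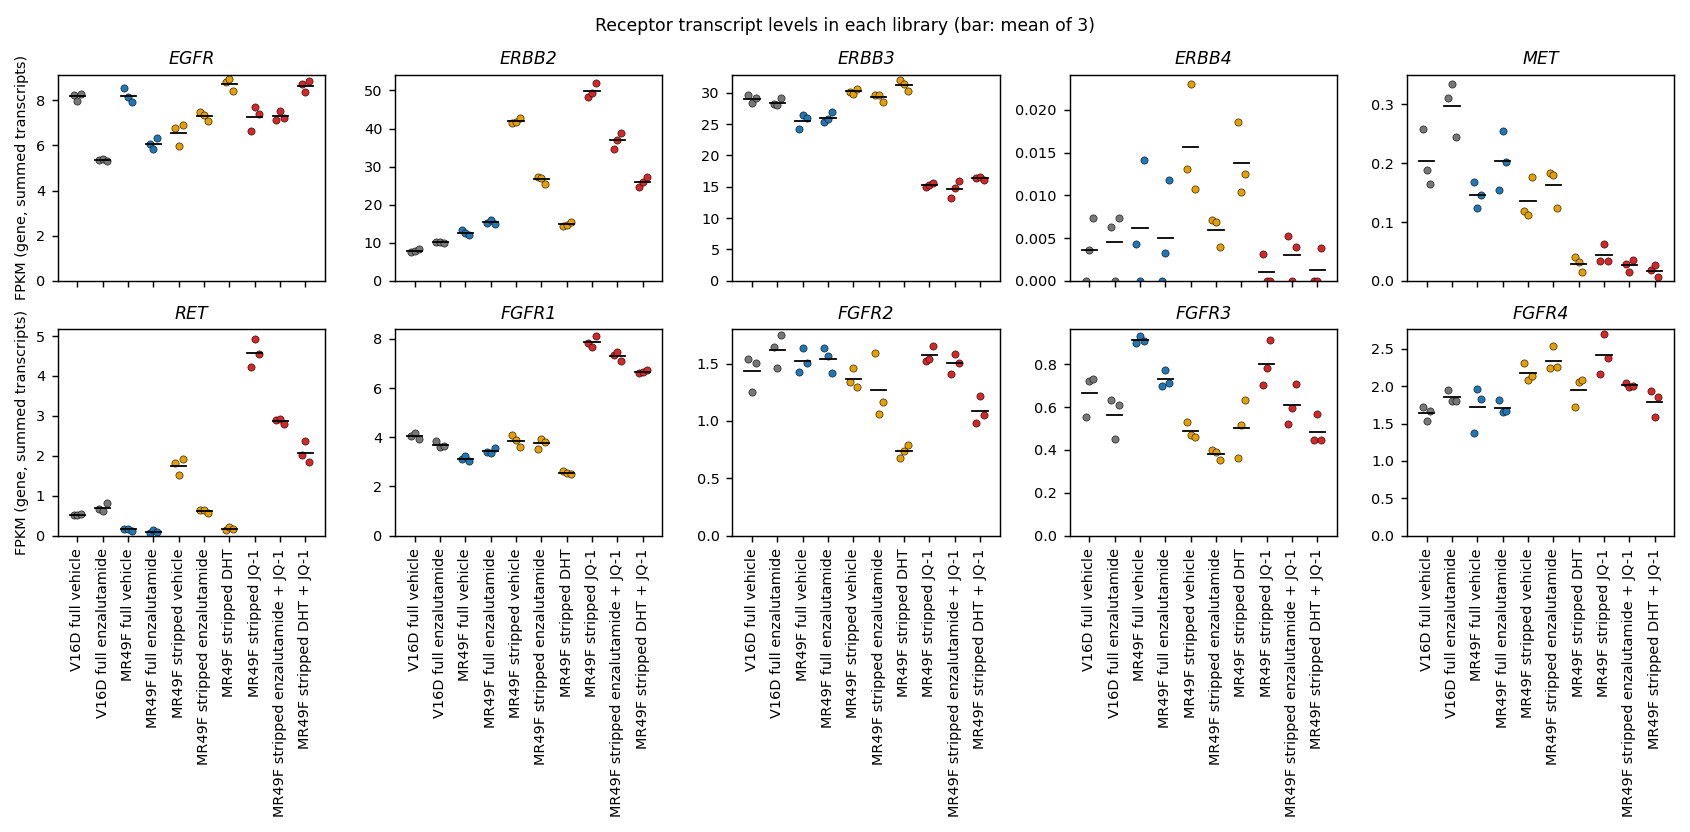
FPKM of each receptor in the 10 conditions, each panel on its own linear axis from 0, with a point for each of the 3 libraries of a condition and a bar at their mean. ERBB2 spans 7.57 to 52.0 FPKM, ERBB3 falls to 13.2 to 16.5 FPKM wherever JQ-1 is present, and ERBB4 stays at or below 0.023 FPKM.

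A log2 change is treated against control, and an adjusted p-value at or below 0.05 over all tested genes is a call. In full serum, enzalutamide called 6 of 9 tested members in V16D cells, 3 higher and 3 lower, where 37.5% of all tested genes were called. In MR49F cells it called 2 of 9, where 8.48% of all genes were called. Between the vehicle-treated lines 5 of 9 members differed, against 63.7% of all genes. In stripped serum DHT called 5 of 8 members (1 higher, 4 lower), against 70.2% of all genes, and enzalutamide called 2 of 8, both lower, against 35.4%. DHT and enzalutamide compared directly gave 5 of 8 members, against 55.9% of all genes. JQ-1 called 5 of 8 members, 4 higher and 1 lower, in each of its 3 settings, where 73.0% (alone), 73.2% (with enzalutamide) and 76.2% (with DHT) of all genes were called. These shares of members were thus near or below the background in most comparisons, and the tests below are about single receptors. ERBB2 and RET were each called in 11 of 12 comparisons, FGFR1 in 8, EGFR and ERBB3 in 6, FGFR3 in 4 and FGFR2 in 3. The comparisons with stripped-serum vehicle share those 3 libraries.

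Because DHT moved so many genes, the scale matters. The median log2 change of all genes with DHT was -0.12, and it was -0.02 once each library was centred on its median. With that centring the share of all calls that were higher went from 38.0% to 49.0% for DHT, from 34.4% to 53.1% for DHT against enzalutamide and from 43.8% to 58.1% for the difference in enzalutamide change between sera. For DHT the member affected was ERBB3, at 0.05 (adjusted p = 0.296) as deposited and 0.15 (adjusted p = 0.00616) centred, and at 0.20 (adjusted p = 0.00334) centred against enzalutamide. Centring also added calls for EGFR and FGFR2 with JQ-1 and for FGFR4 between the sera, given with those receptors. In bulk RNA fewer cells carrying a transcript and less of it per cell cannot be told apart.

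ERBB2 had the widest range in FPKM of the ERBB family. In stripped serum its level was 41.5, 41.7 and 42.8 FPKM in the vehicle libraries, 27.4, 27.1 and 25.4 FPKM with enzalutamide and 14.5, 14.8 and 15.51 FPKM with DHT. The 3 groups did not overlap, with DHT lowest. The log2 change was -0.66 ± 0.04 (SE) with enzalutamide, to 0.634 of vehicle (limma, adjusted p = 1.6e-05), and -1.49 ± 0.04 with DHT, to 0.357 of vehicle (adjusted p = 2.46e-08). ERBB2 thus fell with the androgen and with the antiandrogen, and it was lower with DHT than with enzalutamide (log2 difference -0.83 ± 0.05, adjusted p = 3e-06). 

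JQ-1 raised ERBB2 in all 3 settings. The libraries read 48.3, 49.4 and 52.0 FPKM with JQ-1 alone, 34.7, 37.0 and 38.9 FPKM with enzalutamide and JQ-1, and 24.7, 25.9 and 27.4 FPKM with DHT and JQ-1. Each group lay above its control without JQ-1, while both combined groups lay below vehicle. The log2 changes were 0.25 ± 0.04 (adjusted p = 0.00039), 0.47 ± 0.05 (adjusted p = 6.08e-05) and 0.79 ± 0.05 (adjusted p = 2.55e-06). With DESeq2 on counts the change with JQ-1 alone was 0.25 (adjusted p = 0.0694). Whether these JQ-1 changes differ from each other was not tested.

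In full serum ERBB2 moved the other way with enzalutamide. V16D vehicle libraries had 7.57, 7.94 and 8.26 FPKM and enzalutamide libraries 10.3, 10.3 and 9.83 FPKM, with no overlap. The log2 change on counts was 0.32 ± 0.04 (edgeR, adjusted p = 5.41e-12). MR49F cells had 13.5, 12.5 and 12.01 FPKM with vehicle and 15.2, 15.9 and 14.96 FPKM with enzalutamide, also without overlap. That change, 0.24 ± 0.06 (adjusted p = 0.0386), lost its call on FPKM (adjusted p = 0.054) and without any 1 of 5 of the 6 libraries (enzalutamide replicates 1 to 3 and vehicle replicates 2 and 3, adjusted p = 0.0774 to 0.175). Without vehicle replicate 1 it was 0.30 (adjusted p = 1.15e-07).

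MR49F vehicle cells had more ERBB2 than V16D cells, by 0.65 ± 0.06 log2 units (edgeR, adjusted p = 3.66e-06). Stripped-serum MR49F vehicle cells had 3.3 times the full-serum level (log2 1.72 ± 0.05, adjusted p = 5.49e-07), with 72.2% of all genes called and 6 of 8 members. Serum and experiment are the same split of the libraries and cannot be told apart. The enzalutamide change differed between the sera by -0.94 ± 0.07 log2 units (adjusted p = 3.33e-06), a comparison in which 30.4% of all genes and 3 of 8 members were called.

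**Figure D2:**
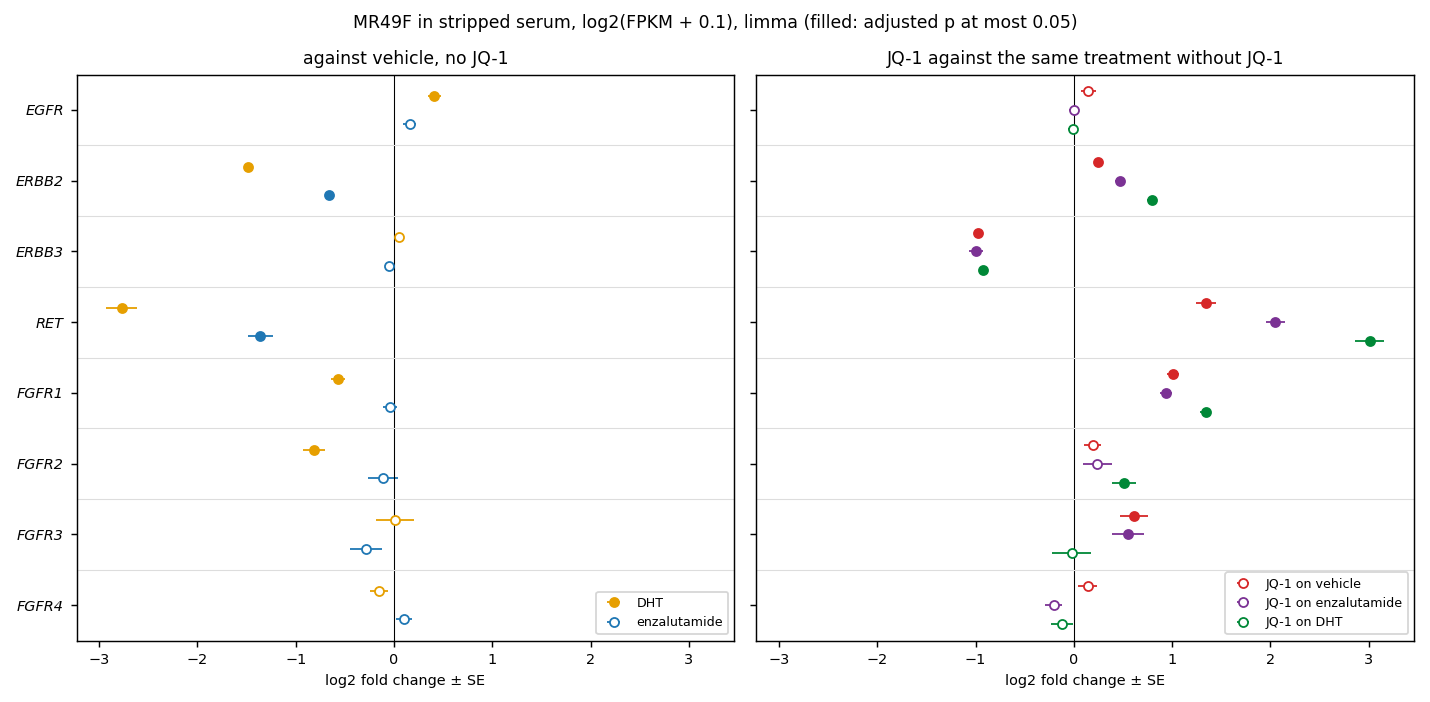
Log2 change with its SE for each tested receptor in the stripped-serum comparisons, filled where the adjusted p-value is at or below 0.05. ERBB2 and RET lie below 0 with DHT and with enzalutamide and above 0 with JQ-1, and ERBB3 lies near -1 in all 3 JQ-1 comparisons.

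The FPKM files split ERBB2 into the transcripts NM_004448 and NM_001005862, which differ at their 5′ ends. These are Cufflinks estimates from short single-end reads and are given as a description with no test. NM_001005862 stayed between 2.65 and 5.47 FPKM in all 24 MR49F libraries, whereas NM_004448 ran from 7.24 to 47.1 FPKM. In the 6 V16D libraries the order was opposite, with NM_001005862 at 5.98 to 8.1 FPKM and NM_004448 at 1.32 to 3.37 FPKM. The mean share of NM_001005862 in ERBB2 was 77.4% in V16D vehicle cells, 32.8% in MR49F full-serum vehicle cells, 11.7% in stripped-serum vehicle cells and 24.6% with DHT. The estimated mean of NM_004448 went from 37.1 FPKM with vehicle to 21.9 FPKM with enzalutamide, 11.3 FPKM with DHT and 45.6 FPKM with JQ-1, so the spread of ERBB2 in stripped serum was in this transcript. The window printed above lies before the representative start at position 37856317.

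**Figure D3:**
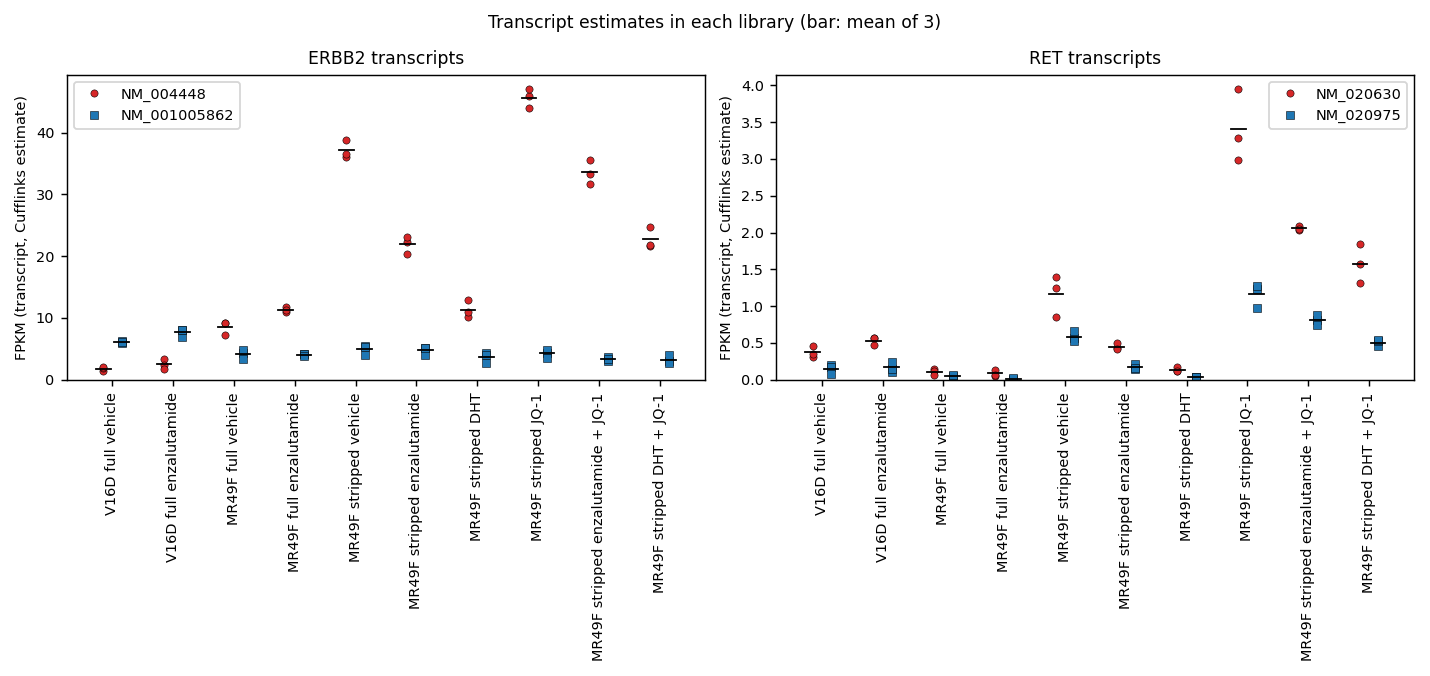
Estimated FPKM of ERBB2 and RET transcripts in every library, by condition, with a bar at the mean of 3 libraries. NM_001005862 keeps within 2.65 to 5.47 FPKM across MR49F libraries while NM_004448 covers 7.24 to 47.1 FPKM.

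ERBB2 shares 571 exon bases on the opposite strand with MIEN1. MIEN1 averaged 126 FPKM in stripped-serum vehicle cells, 105 FPKM with DHT, 112 FPKM with enzalutamide and 163 FPKM with JQ-1. Its log2 change was -0.26 with DHT against -1.49 for ERBB2, and 0.37 with JQ-1 against 0.25. Between the lines it was 1.04 against 0.65, between the sera 0.65 against 1.72, and with enzalutamide in V16D cells 0.24 against 0.32, so both genes had the same sign in each. Its part in the ERBB2 values was not tested.

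ERBB3, the neuregulin receptor, changed mainly with JQ-1. Vehicle libraries had 30.1, 29.9 and 30.7 FPKM and JQ-1 libraries 15, 15.3 and 15.7 FPKM. All JQ-1 libraries thus lay near one level, and with enzalutamide and JQ-1 (13.2, 14.9 and 15.9 FPKM) or DHT and JQ-1 (16.4, 16.5 and 16.03 FPKM) the level was similar. The log2 changes were -0.98 ± 0.03 alone (limma, adjusted p = 1.36e-07), -0.997 ± 0.07 on top of enzalutamide (adjusted p = 3.03e-06) and -0.93 ± 0.04 on top of DHT (adjusted p = 2.97e-07). Enzalutamide alone gave -0.05 (adjusted p = 0.389). By transcript, the estimate of NM_001982 went from 24.0 to 9.76 FPKM with JQ-1 and that of NM_001005915 from 6.23 to 5.55 FPKM.

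In full serum ERBB3 differed little. MR49F vehicle cells had less of it than V16D vehicle cells (log2 difference -0.27 ± 0.04, edgeR adjusted p = 0.000251). With enzalutamide in V16D cells it was -0.07 (adjusted p = 0.0293). That call was absent with DESeq2 (adjusted p = 0.0866), on FPKM (adjusted p = 0.468) and without any 1 of 4 libraries (vehicle replicates 1 and 3 and enzalutamide replicates 1 and 2, -0.07 to -0.06). Between stripped and full serum it was 0.24 on FPKM (adjusted p = 0.00347) and -0.06 on counts (adjusted p = 0.52), which carry the doubt on stripped-serum counts given above.

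EGFR, the receptor of EGF and TGF-alpha, fell with enzalutamide in full serum in both lines. V16D vehicle libraries had 8.26, 7.98 and 8.30 FPKM and enzalutamide libraries 5.37, 5.39 and 5.31 FPKM. MR49F libraries had 8.57, 8.13 and 7.92 FPKM with vehicle and 6.06, 5.83 and 6.32 FPKM with enzalutamide. In neither line did the groups overlap. The log2 change was -0.64 ± 0.05 in V16D cells (edgeR, adjusted p = 8.55e-38) and -0.46 ± 0.06 in MR49F cells (adjusted p = 0.00108). The difference between the lines, 0.17, missed the threshold (adjusted p = 0.203), but without MR49F vehicle replicate 1 it was 0.23 (adjusted p = 0.0132), and the MR49F change was then -0.41 (adjusted p = 1.36e-09). Vehicle-treated lines gave a log2 difference of 0.0019 (adjusted p = 0.981).

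In stripped serum EGFR rose with DHT, and its enzalutamide change did not pass the test. The vehicle libraries had 6.78, 5.99 and 6.89 FPKM, enzalutamide 7.50, 7.36 and 7.08 FPKM and DHT 8.81, 8.96 and 8.43 FPKM. The DHT libraries lay above both other groups. DHT gave 0.41 ± 0.06 (limma, adjusted p = 0.000565) and enzalutamide 0.16 (adjusted p = 0.0955), and the enzalutamide change differed between the sera by 0.59 ± 0.09 (adjusted p = 0.0005). DHT exceeded enzalutamide by 0.25 ± 0.05 (adjusted p = 0.00324), a call that was not made on counts (adjusted p = 0.125). JQ-1 gave 0.14 (adjusted p = 0.123) alone, which was called without JQ-1 replicate 1 (0.21, adjusted p = 0.0396) and with centred libraries (0.215, adjusted p = 0.0342), and -0.01 (adjusted p = 0.799) on top of DHT. EGFR was lower in stripped than in full serum (-0.32 ± 0.07, adjusted p = 0.00582).

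**Figure D4:**
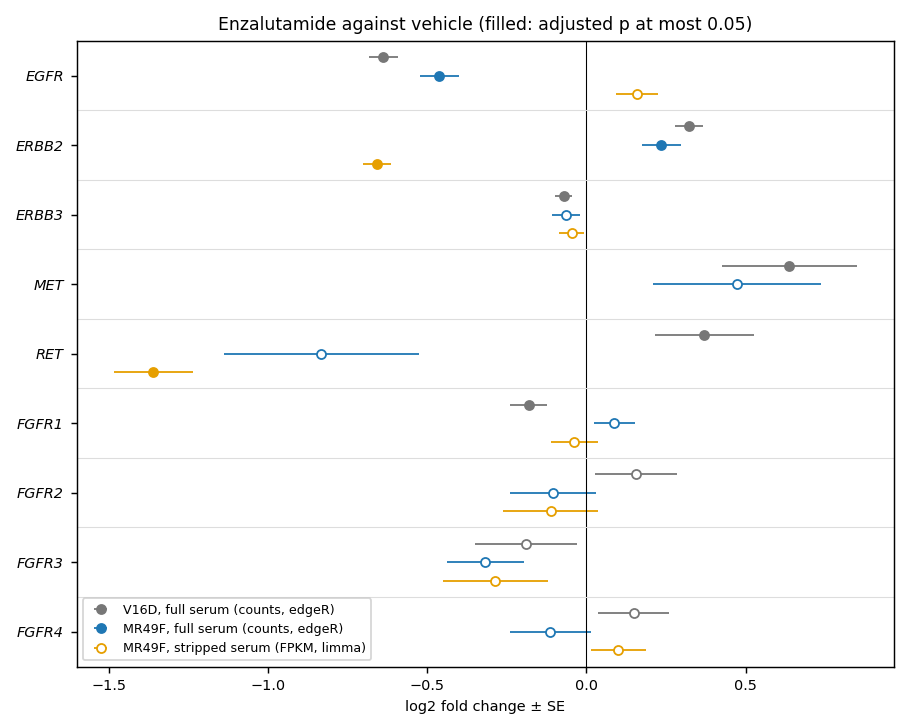
Log2 change with enzalutamide, with its SE, for each tested receptor in V16D and MR49F cells in full serum (counts, edgeR) and MR49F cells in stripped serum (FPKM, limma), filled where the adjusted p-value is at or below 0.05. EGFR is below 0 in full serum and at 0.16 (not called) in stripped serum, and ERBB2 is above 0 in full serum and at -0.66 in stripped serum.

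RET, the receptor of the GDNF family ligands, had the largest log2 changes of the members in stripped serum. It was at 1.82, 1.51 and 1.92 FPKM with vehicle, 0.643, 0.637 and 0.579 FPKM with enzalutamide and 0.143, 0.212 and 0.159 FPKM with DHT. With JQ-1 it was at 4.22, 4.92 and 4.55 FPKM. The 4 groups did not overlap, with DHT lowest and JQ-1 highest. The log2 change was -1.36 ± 0.13 with enzalutamide (limma, adjusted p = 8.88e-05), -2.77 ± 0.16 with DHT (adjusted p = 1.61e-06) and 1.34 ± 0.10 with JQ-1 (adjusted p = 7.95e-06). The DHT libraries lay below 0.3 FPKM, so RET passed the filter for DHT against vehicle only through the vehicle libraries. When a vehicle library was left out, RET was not tested there. The same held for DHT against enzalutamide, JQ-1 added to DHT and stripped against full serum, each through its higher group.

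JQ-1 on top of the other agents gave larger log2 changes in RET. Enzalutamide with JQ-1 read 2.90, 2.93 and 2.79 FPKM, 4.13 times enzalutamide alone on the log2(FPKM + 0.1) scale (2.05 ± 0.10, adjusted p = 4.16e-07). DHT with JQ-1 read 2.02, 2.36 and 1.85 FPKM, 8.04 times DHT alone (3.01 ± 0.15, adjusted p = 8.05e-07). DHT with JQ-1 thus overlapped the vehicle range of 1.51 to 1.92 FPKM. Whether the added changes exceed that of JQ-1 alone was not tested, and the pseudocount of 0.1 FPKM lessens changes that start from the low DHT level.

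In full serum RET was at 0.508, 0.514 and 0.540 FPKM in V16D vehicle cells and at 0.162, 0.173 and 0.129 FPKM in MR49F vehicle cells, which was 0.301 times the V16D level on counts (log2 -1.73 ± 0.19, edgeR adjusted p = 8.81e-06). Enzalutamide gave 0.664, 0.616 and 0.812 FPKM in V16D cells and 0.0671, 0.135 and 0.0806 FPKM in MR49F cells. The V16D groups did not overlap (log2 change 0.37 ± 0.16, adjusted p = 0.0486), and that call was lost without any 1 of 4 libraries (vehicle replicates 1 to 3 and enzalutamide replicate 3, adjusted p = 0.0861 to 0.319). It was also lost with no filter (adjusted p = 0.0533), with DESeq2 (adjusted p = 0.253) and on FPKM (adjusted p = 0.0856). The MR49F change was -0.83 ± 0.31 (adjusted p = 0.119). The difference between the lines was -1.21 ± 0.35 (adjusted p = 0.0376), the only member called where 6.95% of all genes were. It was lost on FPKM (-0.76, adjusted p = 0.0976), with DESeq2 (adjusted p = 0.0814) and without any 1 of 7 of the 12 libraries (all V16D vehicle replicates, V16D enzalutamide replicate 3, MR49F vehicle replicate 2 and MR49F enzalutamide replicates 1 and 3, adjusted p = 0.0634 to 0.131).

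RET averaged 1.75 FPKM in stripped-serum and 0.155 FPKM in full-serum MR49F vehicle cells. On the log2(FPKM + 0.1) scale this was 7.25 times as high (log2 2.86 ± 0.14, limma adjusted p = 2.63e-06). The pseudocount lessens this ratio, as the full-serum level is close to it. The enzalutamide change differed between sera by -0.95 ± 0.21 (adjusted p = 0.00657) on FPKM, and by -0.55 (adjusted p = 0.655) on the doubtful stripped-serum counts. The transcript NM_020630, which encodes the RET9 form, held 65.9 to 85.6% of RET in the group means and NM_020975, the RET51 form, the rest. Over the 6 group means in stripped serum, COQ6 (Pearson r = 0.9996), STAM2 (0.9987), NCOA3 (0.9986), UBTD1 (0.9984) and IQGAP1 (0.9977) had the log2 levels most like RET among 13681 genes searched. NCOA3, a nuclear receptor coactivator, averaged 8 FPKM with vehicle, 3.29 FPKM with DHT and 12.6 FPKM with JQ-1. These 6 means share their libraries with the tests above, and the likeness is a description.

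MET, the HGF receptor, was low throughout. In full serum it read 0.258, 0.189 and 0.165 FPKM in V16D vehicle cells and 0.310, 0.335 and 0.245 FPKM with enzalutamide. These FPKM ranges overlapped, whereas the normalised counts, the unit tested there, did not. The log2 change on counts was 0.64 ± 0.21 (edgeR, adjusted p = 0.00986). That call was lost with DESeq2 (0.63, adjusted p = 0.132), and without vehicle replicate 3 (0.50, adjusted p = 0.0939) or enzalutamide replicate 2 (0.54, adjusted p = 0.0743). In MR49F cells it was 0.47 (adjusted p = 0.296). In stripped serum MET was 0.119, 0.112 and 0.176 FPKM with vehicle and at most 0.0623 FPKM in any library with DHT or JQ-1. There it lay under the FPKM filter, so these levels carry no test. It had no counted read in 14 of the 18 stripped-serum libraries, with the same doubt on those counts, and its FPKM was above 0 in all 18. HGF, its ligand, was listed at 0 FPKM in all 30 libraries.

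FGFR1, on the minus strand at chr8:38257733-38326352 in GRCh37, fell with DHT and rose with JQ-1. Vehicle libraries had 4.08, 3.90 and 3.60 FPKM, DHT libraries 2.64, 2.55 and 2.51 FPKM and JQ-1 libraries 7.84, 7.69 and 8.11 FPKM. The 3 groups did not overlap, and the libraries with enzalutamide (3.53, 3.91 and 3.82 FPKM) overlapped vehicle. The log2 change was -0.57 ± 0.07 with DHT (limma, adjusted p = 0.000148) and 1.01 ± 0.06 with JQ-1 (adjusted p = 2.07e-06), a 2.02-fold rise. JQ-1 on top of DHT gave 6.61, 6.65 and 6.75 FPKM, a 2.54-fold rise (1.34 ± 0.05, adjusted p = 2.75e-07), and on top of enzalutamide a log2 change of 0.94 ± 0.06 (adjusted p = 2.74e-06). FGFR1 was lower with DHT than with enzalutamide (-0.53 ± 0.07, adjusted p = 0.00031), which was not called on counts (adjusted p = 0.093). On the same doubtful counts the change with DHT against vehicle was called by edgeR (adjusted p = 0.0175) and not by DESeq2 (adjusted p = 0.179).

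In full serum FGFR1 was lower in MR49F than in V16D vehicle cells (-0.35 ± 0.07, edgeR adjusted p = 0.000828), at 3.10, 3.24 and 3.04 FPKM against 4.04, 4.17 and 3.93 FPKM, without overlap. Enzalutamide in V16D cells gave -0.18 ± 0.06 (adjusted p = 0.00783). That call was lost with DESeq2 (adjusted p = 0.0916), on FPKM (adjusted p = 0.107) and without vehicle replicate 2 (-0.15, adjusted p = 0.0858). In MR49F cells it gave 0.09 (adjusted p = 0.431), and the difference between the lines was 0.26 (adjusted p = 0.086). That difference was called without MR49F vehicle replicate 1 (0.27, adjusted p = 0.0428) and without V16D enzalutamide replicate 1 (0.31, adjusted p = 0.049). It was also called by limma on FPKM (0.267, adjusted p = 0.0479).

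FGFR2 fell with DHT, from 1.34, 1.46 and 1.29 FPKM to 0.673, 0.734 and 0.793 FPKM, with no overlap (-0.82 ± 0.11, limma adjusted p = 0.00023). JQ-1 added to DHT raised it to 0.983, 1.22 and 1.06 FPKM (0.51 ± 0.12, adjusted p = 0.00537), above DHT alone and below vehicle. JQ-1 alone gave 0.19 (adjusted p = 0.0875), called once libraries were centred (0.26, adjusted p = 0.0285). On top of enzalutamide it gave 0.24 (adjusted p = 0.18), and 0.40 (adjusted p = 0.0207) without enzalutamide replicate 1. On the doubtful stripped-serum counts DESeq2 called neither the fall with DHT (-0.715, adjusted p = 0.577) nor the rise with JQ-1 added to DHT (0.533, adjusted p = 0.63).

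FGFR3 rose with JQ-1, from 0.532, 0.471 and 0.461 FPKM to 0.706, 0.783 and 0.915 FPKM (0.61 ± 0.14, limma adjusted p = 0.00426), without overlap. With enzalutamide present the change was 0.55 ± 0.16 (adjusted p = 0.0145), lost without replicate 3 of enzalutamide (adjusted p = 0.0543) or of enzalutamide with JQ-1 (adjusted p = 0.0636). With DHT present it was -0.02 (adjusted p = 0.926). In full serum it was higher in MR49F than in V16D cells (0.50 ± 0.14, edgeR adjusted p = 0.00824). Stripped serum had less of it than full serum by FPKM (-0.79, adjusted p = 0.000412) and gave 0.08 (adjusted p = 0.834) on counts, with the same doubt. DESeq2 on stripped-serum counts called neither the change with JQ-1 alone (adjusted p = 0.787) nor that of JQ-1 added to enzalutamide (adjusted p = 0.559).

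FGFR4 ranged from 1.37 to 2.70 FPKM over all libraries and passed the adjusted threshold in 0 of 12 comparisons by edgeR or limma as fitted, and had an unadjusted p under 0.05 in 3. Between stripped and full serum it gave 0.34 by FPKM (limma, adjusted p = 0.0619) and -0.50 by counts (adjusted p = 0.171), with the same doubt on stripped-serum counts. By FPKM it was called there without MR49F full vehicle replicate 2 (0.43, adjusted p = 0.0333) and with centred libraries (0.38, adjusted p = 0.0243). JQ-1 added to enzalutamide gave -0.206 (limma, adjusted p = 0.0544), which was called with a pseudocount of 1 (-0.148, adjusted p = 0.0477).

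Genes around the receptors were counted from lists of ligands, co-receptors, adaptors and feedback inhibitors. With DHT 26.7% of all tested genes were called higher and 43.5% lower. Of 5 tested ERBB ligands 4 fell with DHT, with a median log2 change of -1.55 against -0.12 over all genes. TGFA, a ligand of EGFR, went from 2.70 to 0.689 FPKM (-1.83, limma adjusted p = 5.3e-07) and HBEGF from 3.18 to 1.02 FPKM (-1.55, adjusted p = 1.82e-06). NRG3, a neuregulin, fell by 1.81 (adjusted p = 1.36e-05). With enzalutamide in stripped serum 2 of 5 fell, where 18.0% of all genes did, HBEGF by 1.03 (adjusted p = 0.000158) and TGFA by 0.49 (adjusted p = 0.00388). With JQ-1 alone 2 of 6 rose and 2 fell, where 30.5% of all genes rose and 42.4% fell, among them AREG, which encodes amphiregulin, from 0.285 to 1.26 FPKM (1.81, adjusted p = 3.41e-05).

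Feedback inhibitors of the receptors moved both ways with DHT, with 5 of 22 higher and 14 lower, where 26.7% of all genes were higher and 43.5% lower. Their median log2 change was -0.43, against -0.12 over all genes. Among those that rose, LRIG1, which promotes degradation of ERBB receptors, went from 12.6 to 90.6 FPKM (2.83, limma adjusted p = 7.58e-10). ERRFI1, an inhibitor of EGFR kinase activity, also rose, from 5.95 to 29.4 FPKM (2.28, adjusted p = 6.52e-09). Against those same shares of all genes, 8 of 11 ERK output genes fell and 1 rose, with FOS going from 4.18 to 1.11 FPKM (-1.83, adjusted p = 8.35e-07) and the ERK phosphatase gene DUSP4 rising from 2.90 to 11.3 FPKM (1.93, adjusted p = 5.01e-08). Of 15 adaptors 2 rose and 9 fell, read against the same 26.7% and 43.5%, and GRB10, which binds several receptor kinases, went from 221 to 47.6 FPKM (-2.21, adjusted p = 2.54e-09).

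FGF co-receptors gave 1 higher and 3 lower of 5 with DHT, near the 26.7% and 43.5% of all genes. The heparan sulphate proteoglycan SDC4 went from 21.4 to 4.82 FPKM (-2.13, limma adjusted p = 3.25e-08), and FGFRL1, a receptor-like protein without a kinase domain, from 63.2 to 118 FPKM (0.90, adjusted p = 1.3e-06). Of 4 genes for the MET ligand and its processing 3 fell with DHT. With JQ-1 alone 2 of these 4 were higher and 1 lower, where 30.5% of all genes were higher and 42.4% lower. The lower one was hepsin (HPN), a protease that activates HGF, which went from 33.3 to 16 FPKM (-1.05, limma adjusted p = 4.45e-07). Feedback inhibitors gave 3 higher and 11 lower of 22 with JQ-1 alone, where 30.5% of all genes were higher and 42.4% lower.

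Between the vehicle-treated lines, 8 of 11 ERK output genes were higher in MR49F cells, where 31.9% of all genes were higher and 31.8% lower, and the median log2 difference was 0.73 against -0.0049 over all genes. Of 6 ERBB ligands 3 were higher and 1 lower. NRG3 averaged 0.187 CPM (normalised counts) in V16D and 1.35 CPM in MR49F cells (2.81, edgeR adjusted p = 0.000163), and EGF 6.51 and 13.4 CPM (1.04, adjusted p = 1.94e-05). The V16D level of NRG3 was near the floor, and NRG3 passed the filter of 10 counts only through the MR49F libraries. Feedback inhibitors gave 4 higher and 13 lower of 22, against the same 31.9% and 31.8%.

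**Figure D5:**
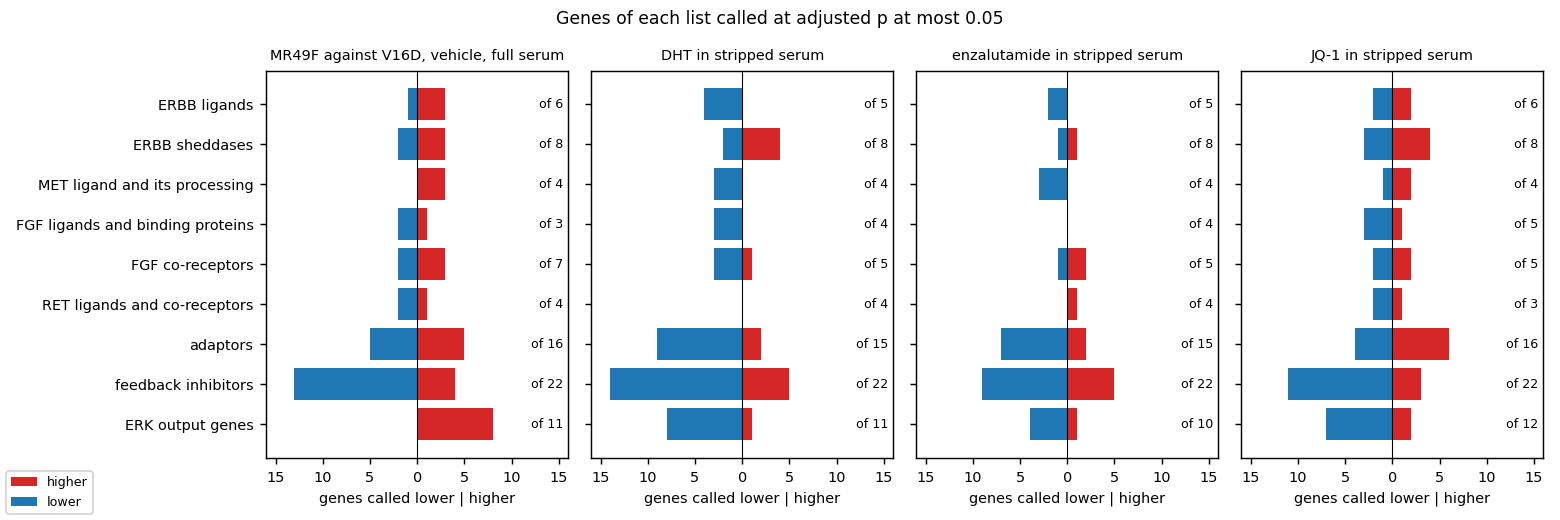
Number of genes of each list called higher (to the right) or lower (to the left) in 4 comparisons, with the number tested at the right. With DHT the ERBB ligands (4 of 5) and the ERK output genes (8 of 11) were mostly lower, and between the lines 8 of 11 ERK output genes were higher in MR49F cells.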

How the data were processed

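RNA-seq was analysed from 30 libraries in 10 conditions of 3, grouped by their labels. Replicates are the authors' separately plated samples of a line, and p-values measure the spread between them. The authors made poly(A), strand-specific single-end libraries, aligned them to GRCh37 with TopHat2 2.0.9, deposited read counts per gene from HTSeq, and deposited FPKM per transcript from Cufflinks 2.1.1. The strand setting of the counting was not given in the sources used here. Entries that name no gene, such as reads on no feature, were left out of library sizes. Reads counted on genes were, of those on genes, on no feature or ambiguous (reads aligned at several places left out), 73 to 77.8% in full serum (median 16248904 reads) and 5.13 to 7.66% in stripped serum (median 1484867 reads).

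FPKM were summed over the transcripts of a gene. Full-serum comparisons used edgeR 4.0.16 quasi-likelihood tests on counts with TMM scaling and its default filter (10 counts, total 15). Stripped-serum and between-serum comparisons used limma 3.58.1 (trend) on log2(FPKM + 0.1), for genes at 0.3 FPKM or more in at least 3 libraries. That scale understates changes of low genes. P-values were adjusted over all genes (Benjamini-Hochberg) with a threshold of 0.05, in 12 comparisons. The fits were tested on simulated data. Alternatives were DESeq2 1.42.0, no or stricter filters, other scalings, a pseudocount of 1, the other unit, a replicate block and leaving out each library. R 4.3.3 and Python 3.11.15 were used.

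Sequences and coordinates came from the GRCh37 genome with GENCODE genes, and motifs were searched on both strands. Members and gene lists were chosen with earlier results of these data known. Named genes were all members, KLK3, up to 4 genes of a list per comparison (the largest called changes without overlap of replicates) and the 5 genes most like RET. Same-numbered replicates did not pair: their correlations ran from -0.316 to 0.33, and in no comparison was every pair over 0.1. Some items are not reported here.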

Additional observations from a re-analysis of the deposited data

Results flagged for a closer look

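The change in RET with enzalutamide in full serum differed between the cell lines, by an interaction term in edgeR, at -1.21 log2 units for MR49F minus V16D (adjusted p = 0.0376). It was lost with DESeq2 (adjusted p = 0.0814), on FPKM (adjusted p = 0.0976) and without any 1 of 7 of the 12 libraries. The V16D change (0.37, adjusted p = 0.0486) was also lost with DESeq2, on FPKM, with no filter and without any 1 of 4 libraries, and the MR49F change did not pass the test.

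In MR49F cells the enzalutamide change differed between stripped and full serum for 3 receptors, by an interaction term in limma. It was 0.587 log2 units for EGFR (adjusted p = 0.0005), -0.936 for ERBB2 (adjusted p = 3.33e-06) and -0.954 for RET (adjusted p = 0.00657). The ERBB2 change was called higher in full serum and lower in stripped serum, and EGFR was called lower in full serum with no call in stripped serum. RET was called lower in stripped serum and had no call in full serum (adjusted p = 0.119). Serum and experiment cannot be told apart.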

How the results depend on the processing

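Over alternatives other than leaving out a library, 547 member values kept their direction and side of the threshold, 32 uncalled ones changed sign without a call in either fit, 30 lost and 8 gained a call, and 4 called ones reversed. ERBB3 between sera became -0.0624 by edgeR and -0.0624 by DESeq2 on counts, and FGFR3 0.0765 and 0.0763. The cause was not tested. Members called in V16D enzalutamide were 2 of 10 tested with DESeq2, 2 of 8 with limma on FPKM and 2 of 8 with a pseudocount of 1, rather than 6 of 9, and 1 and 1 of 7 rather than 2 of 9 in MR49F with limma. On stripped-serum counts edgeR called 1 of 4 tested members (enzalutamide), 3 of 4 (DHT) and 1 of 5 (DHT against enzalutamide). DESeq2 called 1, 3 and 1 of 9, and the FPKM fits 2, 5 and 5 of 8. RET and FGFR2 were not tested by edgeR on counts with DHT. With DESeq2 there were 3 of 9 for JQ-1 and 0 of 10 for the line interaction (2 at an unadjusted p under 0.05).

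Leaving out each library gave 3 to 5 members for V16D enzalutamide, 1 to 2 for MR49F enzalutamide, 0 to 3 for the line interaction, 5 between lines, 2 for stripped-serum enzalutamide, 4 to 5 for DHT, 4 to 5 for DHT against enzalutamide, 5 to 6 for JQ-1, 4 to 6 with enzalutamide, 4 to 5 with DHT, 5 to 7 between sera and 3 for the serum interaction. A replicate block left 6, 2, 1, 5, 2, 5, 5, 5, 5, 5, 6 and 3 members called in that same order, as without it. In some of the fits with a library left out, RET fell under the filter, so 7 rather than 8 members were tested. Those fits gave 4 of 7 for DHT, for DHT against enzalutamide and for JQ-1 added to DHT, and 5 of 7 between sera. The shares of all genes called in the full fits are given above.

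Calls over all genes fell by more than 1.5 times with DESeq2 in V16D enzalutamide (3495 against 5276) and with limma on FPKM in MR49F (558 against 1181; 406 to 2533 when a library was left out). In stripped serum edgeR and DESeq2 on counts gave 808 and 368 for enzalutamide, 4122 and 2680 for DHT, 2122 and 1157 for DHT against enzalutamide, 5284 and 3518 for JQ-1, 4902 and 3188 with enzalutamide, and 5891 and 4318 with DHT, where few reads fell on genes. For the serum interaction they were 1613 and 1722 against 4520, and the line interaction reached 1523 and 1579 against 1006 without MR49F vehicle replicate 1 or 3.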
